A study of Mus musculus with 16 samples.

Results

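The regions described here are broad stretches of H3K27ac that were present in every condition of the experiment. The 4 H3K27ac peak lists of bone marrow-derived macrophages (BMDMs) were merged wherever peaks shared at least 1 bp, and a merged region was kept when it held a peak of all 4 lists and spanned 5000 bp or more. The members were thus chosen by their measured width and presence, and 1497 of 55218 merged regions met the rule. They were 6.97% of the 21468 regions with a peak in every list, which are called constant regions, and they held 22.5% of the bases of those regions. The remaining 19971 constant regions, all under 5 kb, serve as the comparison and are called narrower constant regions. BMDMs are primary macrophages grown in culture from mouse marrow, here from C57Bl6 animals of 8 to 12 weeks. The conditions were untreated cells (Control), 100 ng/mL interferon gamma for 1 h (IFNγ), 20 µM of the PARP inhibitor PJ34, and IFNγ for 1 h in cells given PJ34 beforehand (IFNγ+PJ34). Each condition had 2 ChIP replicates and 2 input replicates, from which the authors made a single list, so no replicate error could be computed and no difference between conditions below was tested. The lists held between 40708 and 44090 peaks, with no read counts, so the depth behind them is unknown.

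H3K27ac is an acetylated form of histone H3 that is found on nucleosomes beside active gene starts and active enhancers. A typical site is narrow, whereas long acetylated stretches form where many nucleosomes in a row carry the mark, around and downstream of highly active gene starts or over groups of neighbouring enhancers. In macrophages such stretches are known to lie at genes of cell identity, where PU.1 (encoded by Spi1), C/EBP and AP-1 factors bind. IFNγ response genes are known to carry GAS elements and the related elements that IRF factors bind.

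To show what wide members look like at the level of DNA, an AP-1 match is given for the 5 widest members that hold no protein-coding start. It is the match nearest to the Control summit among those allowed. Matches were left out if they or their flanks met a protein-coding exon or the edge of the region. The summit is the highest point of the Control peak with the greatest −log10 p in the region. The sequences are from GRCm38 (mm10), run 5′ to 3′ on the named strand with 20 bases on either side, and capitals mark the match to TGANTCA, the core that AP-1 dimers recognise.
Pik3ap1, chr19:41331297-41331343, plus strand: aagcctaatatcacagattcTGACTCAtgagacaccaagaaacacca
Tprg, chr16:25058838-25058884, plus strand: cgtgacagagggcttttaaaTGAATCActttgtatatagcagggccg
Vmp1, chr11:86624450-86624496, plus strand: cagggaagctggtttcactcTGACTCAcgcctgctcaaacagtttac
Ankdd1a, chr9:65541860-65541906, plus strand: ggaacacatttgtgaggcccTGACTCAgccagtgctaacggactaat
2010111I01Rik, chr13:63253349-63253395, plus strand: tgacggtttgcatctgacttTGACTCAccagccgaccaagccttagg
Counted without that restriction, these members held 14, 13, 10, 8 and 11 matches, in the order of the lines. The match shown lay 749, 663, 493, 170 and 319 bp from the Control summit. A match is a description of the sequence and not evidence of binding.

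Upstream CpG content was counted in 4 wide members with a gene start, and the members with the most and the fewest are shown by the 200 bases upstream of the RefSeq start of Mcl1, which encodes an anti-apoptotic BCL2 family protein, and of Sh3bp2, an adaptor of immune signalling that was chosen after its values were seen. Capitals mark CG dinucleotides.
Mcl1, chr3:95658521-95658720, plus strand: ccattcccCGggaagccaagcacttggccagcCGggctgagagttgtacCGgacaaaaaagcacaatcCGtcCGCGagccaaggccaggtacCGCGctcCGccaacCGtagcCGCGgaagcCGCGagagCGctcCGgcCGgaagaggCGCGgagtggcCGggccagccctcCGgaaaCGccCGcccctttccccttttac
Sh3bp2, chr5:34543165-34543364, plus strand: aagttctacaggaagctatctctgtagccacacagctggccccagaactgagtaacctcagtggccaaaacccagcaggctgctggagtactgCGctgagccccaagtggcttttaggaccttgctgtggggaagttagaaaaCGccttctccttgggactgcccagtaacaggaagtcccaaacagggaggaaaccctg
The Mcl1 sequence held 23 CG dinucleotides and the Sh3bp2 sequence held 2, and those of Tm9sf4 and Lipa, which are not shown, held 5 each.

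For members at IFNγ response genes, the same 200 bases are shown for Irf1 and Socs1, a transcription factor and a feedback inhibitor of the pathway, for Irgm1, an immunity-related GTPase, and for Cd274, which encodes PD-L1. Capitals mark matches to TTCNNNGAA (GAS) or GAAANNGAA (IRF) on either strand. The genes shown were taken from those with a match in this window, so the display could only show matches.
Irf1, chr11:53769814-53770013, plus strand: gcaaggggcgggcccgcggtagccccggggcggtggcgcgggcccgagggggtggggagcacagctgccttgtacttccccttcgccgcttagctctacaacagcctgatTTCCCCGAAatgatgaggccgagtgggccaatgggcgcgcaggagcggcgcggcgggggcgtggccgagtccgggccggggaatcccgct
Socs1, chr16:10785537-10785736, minus strand: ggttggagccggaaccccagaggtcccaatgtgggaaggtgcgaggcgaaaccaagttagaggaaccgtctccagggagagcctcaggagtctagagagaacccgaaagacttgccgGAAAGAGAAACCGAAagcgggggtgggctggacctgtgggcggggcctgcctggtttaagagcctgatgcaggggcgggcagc
Irgm1, chr11:48871421-48871620, minus strand: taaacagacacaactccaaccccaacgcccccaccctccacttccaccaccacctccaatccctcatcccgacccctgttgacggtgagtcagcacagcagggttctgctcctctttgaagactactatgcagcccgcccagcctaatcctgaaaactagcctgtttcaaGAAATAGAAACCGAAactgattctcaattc
Cd274, chr19:29367238-29367437, plus strand: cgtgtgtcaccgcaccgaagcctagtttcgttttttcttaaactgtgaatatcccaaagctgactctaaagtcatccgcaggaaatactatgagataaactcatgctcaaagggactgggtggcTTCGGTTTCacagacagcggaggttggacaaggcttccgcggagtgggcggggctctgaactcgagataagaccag
Irf1 held a GAS match, Socs1 and Irgm1 each held a pair of overlapping IRF matches, and Cd274 held an IRF match on the opposite strand. Among 16515 start sites in the RefSeq table, 5.23% had a GAS match and 5.49% an IRF match in this window. The corresponding shares were 6.24% and 7.35% for 721 genes with a start in a member, and 4 and 7 of the 13 IFNγ response genes of members that matched the table.

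The members had a median width of 6509 bp, with quartiles of 5627 and 8139 bp, and 198 of them spanned 10 kb or more. The widest, of 30614 bp (chr14:75167351-75197964), held the start of Lcp1, which encodes the actin-bundling protein L-plastin of white blood cells. A region of 29012 bp inside Pik3ap1, an adaptor of PI3K signalling, and a region of 28583 bp at Mcl1 came next. A region of 28552 bp, nearest to the start of Tprg, and a region of 24628 bp inside Vmp1, an autophagy gene, held no protein-coding start. The other regions among the 10 widest were 24019 bp nearest to the start of Ankdd1a, 21087 bp at Psap, 20420 bp at Tm9sf4, 20210 bp inside 2010111I01Rik and 20133 bp at Plekho2. Psap encodes the precursor of the saposins, which assist lysosomal lipid breakdown. Thus 5 of the 10 widest members held no protein-coding start site.

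The peaks inside these regions were joined differently in each list. The Lcp1 region held 8 (Control), 9 (IFNγ), 3 (PJ34) and 14 (IFNγ+PJ34) peaks. These peaks covered 93.5%, 85.5%, 98.2% and 62.5% of it, in the same order. The highest fold enrichment over background in the Lcp1 region was 79.3 (Control), 47.7 (IFNγ), 58.7 (PJ34) and 31.3 (IFNγ+PJ34). The region nearest Ankdd1a was almost filled in every list, at 98.8%, 95.4%, 98.7% and 96.6%. The map of the widest regions shows the peaks and gaps of each list.

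**Figure D1:**
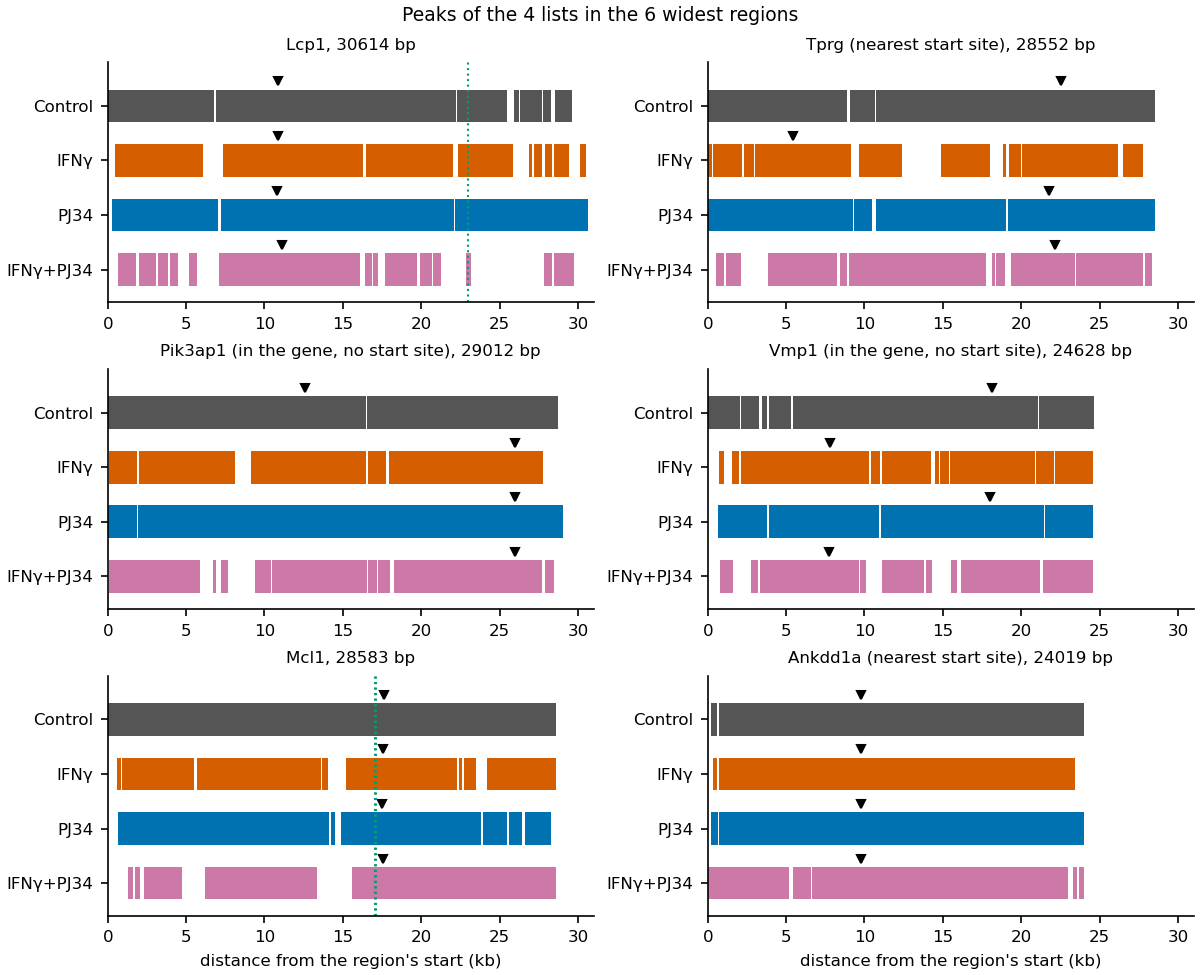
Peaks of the 4 lists in the 6 widest members, by distance from the start of each region in kb. Bars are peaks, triangles mark the summit with the highest fold enrichment in each list, and dotted lines mark protein-coding start sites. The Lcp1 region is split into 14 peaks with IFNγ+PJ34 but 3 with PJ34 alone, while the Ankdd1a region is covered by at least 95.4% in every list.

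Over all members the lists fell into a pair with nearly full coverage and a pair with more gaps. A member was covered to a median of 95% by Control peaks (95% interval 94.5 to 95.4, from order statistics over regions), 93.2% by PJ34 (92.4 to 93.8), 83.7% by IFNγ (83.0 to 84.6) and 83.7% by IFNγ+PJ34 (82.3 to 84.8). These intervals cover the spread over regions and not that between replicates. The medians in narrower constant regions were 91.9%, 85.7%, 77.3% and 76.5%. A single peak was present in 782 of the members for Control, 378 for IFNγ, 563 for PJ34 and 445 for IFNγ+PJ34. A peak that was itself 5 kb or wider was found in 929 members for Control, 525 for IFNγ, 755 for PJ34 and 564 for IFNγ+PJ34. In all, 266 members held such a peak in every list, and 233 held none in any list, so the latter reached 5 kb through the joining of peaks between lists.

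Width and presence were used to choose the members, so coverage was also examined in a list that had no part in the choice. When regions of 5 kb or more were built from 3 lists, all 1420 had a peak in the IFNγ list that was left out, as did 1220 of 1223 in Control, 1301 of 1302 in PJ34 and 1340 of 1347 in IFNγ+PJ34. The share of regions under 5 kb with a peak in the left-out list was lower by 7.28 percentage points for IFNγ (Newcombe 95% interval 6.84 to 7.63), 3.12 for Control (2.60 to 3.42), 3.83 for PJ34 (3.40 to 4.11) and 12.3 for IFNγ+PJ34 (11.6 to 12.8). Any overlap counted as a peak, and a wider region can meet one through its length alone. A difference in this direction was therefore likely in advance. The left-out list covered a median of 83.5% of the broad regions for IFNγ and 81.7% for IFNγ+PJ34, against 75.3% and 72.6% of those under 5 kb. For Control it covered 94.3% against 91.9%, and for PJ34 92.4% against 85.0%.

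**Figure D2:**
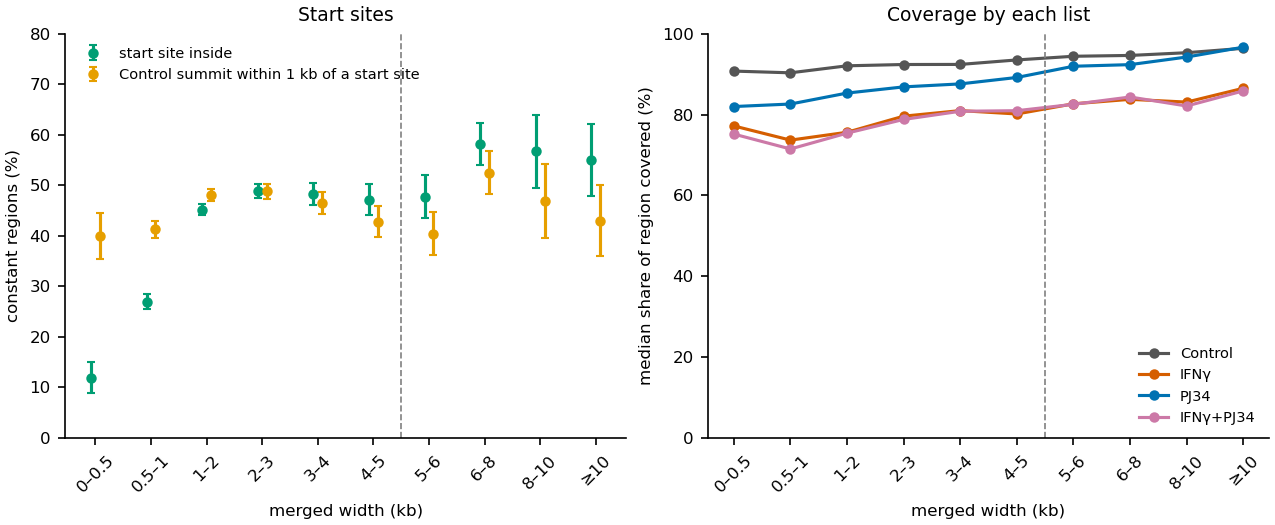
Constant regions grouped by merged width in kb. Left, percentage with a protein-coding start site inside and percentage with the Control summit within 1 kb of one, with exact 95% intervals. Right, median percentage of the region covered by each list. The dashed line marks 5 kb. Coverage by IFNγ and IFNγ+PJ34 stays below that by Control and PJ34 in every width group.

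The peaks inside members ranked high in their own lists. By −log10 p, the top peak of a member had a median percentile between 91.4 and 93.8 in the 4 lists, against 69.3 to 72.9 in narrower constant regions. Members held between 30.8% and 46.0% of the strongest 1% of peaks of each list. This ranking comes from the same lists as the rule and is given as a description. The member with the strongest Control peak, of 5602 bp, was at Csk, the kinase that inhibits Src family kinases. Its fold enrichment was 134 in Control and, in the order IFNγ, PJ34 and IFNγ+PJ34, 80.7, 90.4 and 88.0. Sirpa, the macrophage receptor for CD47, came next with 102, 88.8, 84.8 and 96.3, and these 4 values lay close together. Spi1 followed with 124, 94.8, 87.5 and 30.8, so the IFNγ+PJ34 value of the PU.1 gene stood well below the other 3. The other members among the 10 strongest held the starts of Atp6v0c, a subunit of the proton pump of lysosomes, Cdc42, a small GTPase of actin remodelling, Pcbp1, an RNA-binding protein, Zeb2, a transcription factor of the myeloid lineage, Ptprj, a receptor phosphatase, Cltc, the clathrin heavy chain, and Marcks, an actin-linked substrate of protein kinase C. All 10 held a start site.

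A protein-coding start site lay in 805 of 1497 members, or 53.8% (exact Clopper-Pearson 95% interval 51.2 to 56.3), and in 42.4% of narrower constant regions. The difference was 11.4 percentage points (Newcombe 95% interval 8.75 to 14.0). A wider region can hold a start site through its length alone, so the position of the summit was used as well. The Control summit lay within 1 kb of a start site in 46.1% of members and 46.4% of narrower constant regions, a difference of -0.28 points (-2.89 to 2.34). Among regions whose Control peak was in the top 10% of its list, members were less often at a start site by this measure, at 62.6% of 956 members against 86.9% of 3356 narrower regions, a difference of -24.4 points (-27.7 to -21.1).

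The promoters held by members were also less CpG-rich. In 1 kb centred on the outermost start site, a ratio of observed to expected CpG over 0.6 with a GC content over 50% was found for 503 of 802 genes of members, or 62.7% (59.3 to 66.1). It was found for 79.6% of 8544 genes of narrower constant regions, a difference of -16.8 points (-20.3 to -13.4). This window has the same length for both classes. Over whole regions with a start site, the median ratio of observed to expected CpG was 0.36 in members and 0.64 in narrower regions, where the longer flanks of members enter the value. Members without a start site had a median GC content of 45%, against 45.5% for narrower regions without one.

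Measured from the outermost start site of a gene, the merged region reached mainly into the gene. Any other start site of the same gene lies downstream of that point, so this choice favours the downstream side. In 620 members with the start of exactly 1 gene, the region extended a median of 4738 bp downstream and 1859 bp upstream of the outermost start site. The downstream side was the longer in 494 of them, or 79.7% (76.3 to 82.8), and in 86.3% of narrower regions, a difference of -6.61 points (-10.1 to -3.51). By the median share of the region that lay downstream the order was the reverse, at 72.7% of a member (71.0 to 75.3) and 69.3% of a narrower region (68.7 to 69.8). The whole gene lay inside the region in 54 of the 620, or 8.71%, against 0.87% in narrower regions, a difference of 7.84 points (5.85 to 10.3). Narrower regions are under 5 kb and cannot hold a longer gene, so a difference in this direction follows from the width rule. Genes that lay entirely within a member included B2m, C1qa, C1qc, Ccl3, Ccl4, Cxcl2, Fth1, Ftl1, Id2, Junb, Jund, Lyz2, Nfkbia, Pim1, Socs1, Socs3, Tnf and Zfp36. Among these, C1qa and C1qc encode complement C1q chains, Fth1 and Ftl1 the ferritin chains, and Pim1 a kinase induced by cytokines. These genes were named after the list had been seen.

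The 692 members without a protein-coding start were within a gene body in 390 cases and intergenic in 302. Their midpoints lay a median of 24.8 kb from the nearest start site, with quartiles of 12.1 and 53.4 kb. Members had another member nearby more often than narrower regions did. Another member lay within 20 kb of 33.6% of members (31.2 to 36.1), and a member lay within 20 kb of 11.8% of narrower constant regions, a difference of 21.8 points (19.4 to 24.3). When members within 20 kb were chained, 33 chains held 3 members, 12 held 4, 8 held 5 and 1 held 6. The chain of 6 members, over 83264 bp on chromosome 1, held the starts of Ly9, Slamf7 and Cd48, which encode receptors of the SLAM family. Chains of 5 members lay at Incenp and Fth1, Tnfrsf1b and Tnfrsf8, Zmiz1, Slc43a2, Bcl2l11, Ptafr, Tomm20, and the Tnf locus with Lst1 and Lta. In the chain at Tnfrsf1b, a receptor for TNF, the members filled 87.0% of its 49489 bp. That share is of merged width over the 4 lists and not the coverage by any single list. By chromosome, members were from 4.55% of constant regions on X (26 of 571, interval 3.00 to 6.60) to 9.33% on chromosome 11 (151 of 1618, interval 7.96 to 10.9), with none among the 6 constant regions on Y.

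To see which kinds of gene the members lie at, lists of genes were set against the 897 genes with a start site in a member. These were 4.11% of 21840 protein-coding genes and 9.04% of the 9919 genes with a start in any constant region. In the check of the macrophage label, the marker list had 19 of 20 genes with a start in a constant region and 12 in a member, or 60.0% (36.1 to 80.9). These were Csf1r, the receptor for the growth factor of macrophages, Itgam, Adgre1, Cd68, Lyz2, Fcgr1, Cd14, Ctss, Fcer1g, Laptm5, Msr1 and C5ar1. Mertk, Tyrobp, Mrc1, Cd36, Axl, Itgb2 and Ptprc started in narrower constant regions and Cx3cr1 in none. No start site of the neutrophil, dendritic cell, erythroid and mast cell or stromal markers lay in a constant region. Of the B and T cell markers Ms4a1 lay in a constant region of 1791 bp. With lists of 6 to 10 genes, the upper 95% limits on the share in members were between 30.8% and 45.9%.

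Of 20 lineage regulators, 11 started in a member, or 55% (31.5 to 76.9), namely Spi1, Cebpb, Maf, Irf8, Runx1, Bhlhe41, Klf6, Zeb2, Nr1h3, Id2 and Nfe2l2. Those in narrower constant regions included Cebpa, Fli1, Tfec, Mitf, Bhlhe40, Klf4, Egr2 and Tal1. The actin and adhesion list had 15 of 20 genes in members, or 75% (50.9 to 91.3), from Lcp1 and Itga5, of 13919 bp, to Actg1, of 5421 bp. Vcl, Msn, Itgb1, Rhoa and Cd44 fell below the width limit. Lysosomal genes were in members for 10 of 20, including Psap, Ctsd (20015 bp), Lipa (17780 bp), Ctsb (16787 bp) and Hexa (12801 bp). Of the 15 NF-kB factors and inhibitors 8 were in members, namely Nfkb1, Rel, Nfkbia, Nfkbiz, Tnfaip3, Tnip1, Traf1 and Nfkbid.

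Inflammatory cytokines and sensors were in members for 9 of 20, or 45% (23.1 to 68.5), with Tnf, Cxcl2, Ccl3, Ccl4, Ccl9, Nlrp3, Tlr2, Tlr4 and Il1rn. By contrast, Il1b, Cxcl1, Cxcl3, Ccl2, Ccl5, Ptgs2 and Il12b had no start in any constant region. For IFNγ response genes the count was 15 of 49, or 30.6% (18.3 to 45.4), while 41 of the 49 started in some constant region. The immediate early and AP-1 list had 7 of 22, the lipid and cholesterol list 6 of 20, and the glycolysis list 4 of 16. Ribosomal protein genes stood apart. They started in a constant region in 19 of 20 cases but in a member in 1, Rpl18, or 5.00% (0.13 to 24.9). Within 50 kb of a member, the background was 11.8% of all protein-coding genes, against 15 of 20 macrophage markers and 3 of 20 ribosomal protein genes. The interval of the ribosomal protein genes lay below those of the actin, macrophage marker, lineage, lysosomal and NF-kB lists, and that of the IFNγ response genes below that of the actin list, while the other intervals of these 11 lists overlapped, and differences between lists were not tested. The shares depend on the width rule. At 8 kb or more they were 35.0% for macrophage markers, 25% for lineage regulators and for actin and adhesion genes, and 10.2% for IFNγ response genes. With a single peak of 5 kb or more required in each list they were 5.00%, 15%, 40% and 10.2%, in the order macrophage markers, lineage regulators, actin and IFNγ response genes.

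**Figure D3:**
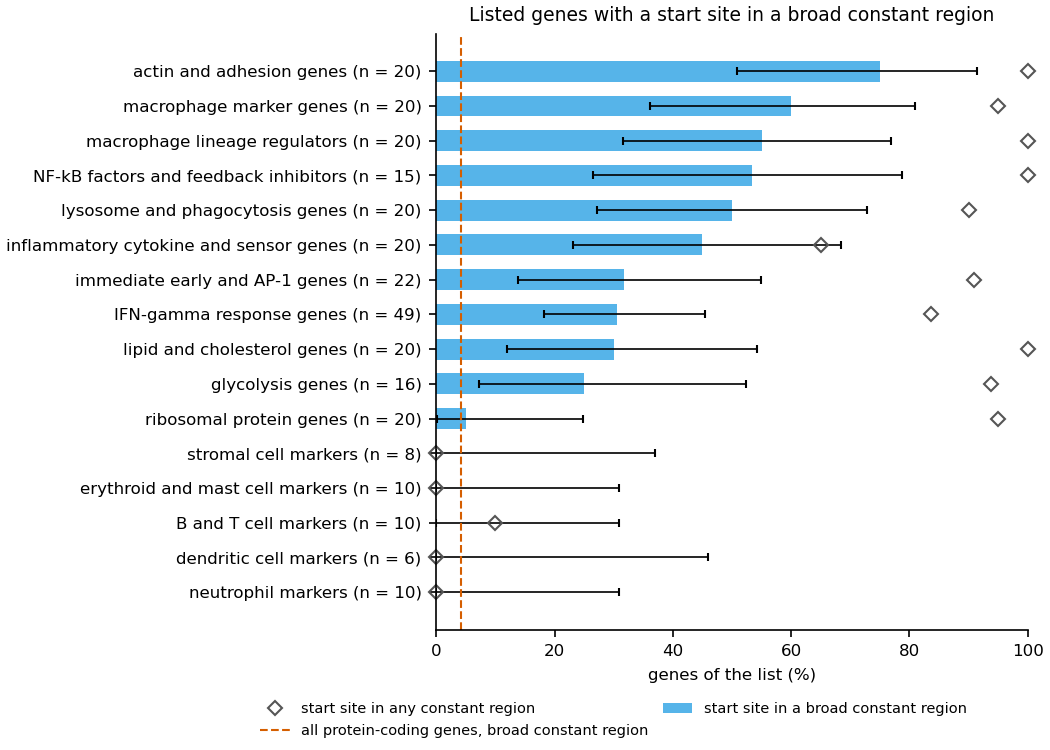
Percentage of each gene list with a start site in a broad constant region (bars, with exact 95% intervals) and in any constant region (diamonds), with n the genes matched to the annotation. The dashed line marks 4.11% of all protein-coding genes. Actin and adhesion genes reach 75%, ribosomal protein genes 5.00%, and markers of other cell types 0%.

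The members also held starts of non-coding genes. These were 66 of 5854 lincRNA genes, 93 of 2959 antisense genes and 41 of 2202 miRNA genes in the annotation, or 1.1%, 3.14% and 1.86%. Of these types 450, 590 and 181 genes, in the same order, started in any constant region. For protein-coding genes, 897 of 21840 started in a member and 9919 in any constant region. The lincRNAs included Neat1, of the nuclear paraspeckles, Malat1, of the nuclear speckles, and Mir155hg, the host of miR-155, in regions of 14098, 11415 and 5528 bp. These were named after their values were seen. Of the 41 miRNA genes 29 matched the RefSeq table, and 7 mature miRNAs, picked after the list had been seen, are shown, with the seed, bases 2 to 8, in capitals and coordinates on GRCm38.
mmu-miR-29b-3p, chr1:195037091-195037113, plus strand: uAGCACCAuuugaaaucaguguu
mmu-miR-29c-3p, chr1:195037600-195037621, plus strand: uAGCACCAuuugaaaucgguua
mmu-miR-15b-5p, chr3:69009775-69009796, plus strand: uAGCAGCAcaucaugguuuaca
mmu-miR-16-5p, chr3:69009918-69009939, plus strand: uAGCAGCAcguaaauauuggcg
mmu-miR-22-3p, chr11:75463772-75463793, plus strand: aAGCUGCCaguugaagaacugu
mmu-miR-21a-5p, chr11:86584120-86584141, minus strand: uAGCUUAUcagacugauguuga
mmu-miR-223-3p, chrX:96242884-96242905, plus strand: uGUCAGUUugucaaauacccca
The miR-29 members share the seed AGCACCA and lay together in a member of 7187 bp, and miR-15b and miR-16 share AGCAGCA and lay together in a member of 6495 bp. The region of miR-21a, of 15576 bp, was in a chain with a pair of members inside Vmp1, among them the wide one described above, and the 3 members filled 99.9% of 56110 bp. Its fold enrichment was 90.1 (Control), 75.2 (IFNγ), 54.8 (PJ34) and 81.3 (IFNγ+PJ34), and its coverage was between 84.9% and 99.3%. The region of miR-223, a miRNA of myeloid cells, had a fold enrichment of 45 (Control), 14.4 (IFNγ), 24.1 (PJ34) and 18.1 (IFNγ+PJ34), so the treated lists lay below Control.

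Sequence motifs were counted in members and in narrower constant regions as exact matches on both strands, each beside a rearranged control motif of the same letters. The motifs were GAGGAAGT for PU.1, TGANTCA for AP-1, TTGCNNAA for C/EBP, TTCNNNGAA for GAS and GAAANNGAA for IRF. Rearranged controls were TGAAGGAG, ACTNAGT, TCTGNNAA, AAGNNNCTT and AAGNNAAAG. Matches of different motifs can overlap and were counted separately. Over all members the ratio of match density to that in narrower regions was 1.09 for AP-1 (exact Poisson 95% interval 1.056 to 1.134) and 1.07 for its control (1.03 to 1.12), and 0.98 for PU.1 (0.91 to 1.04) and 0.98 for its control (0.90 to 1.07). At regions with a start site the AP-1 ratio was 1.48 (1.40 to 1.56) against 1.25 for its control (1.18 to 1.33). The PU.1 ratio there was 1.33 (1.21 to 1.47) against 1.07 (0.95 to 1.20). These ratios are over whole regions. In 200 bp around the Control summit at regions with a start site, neither motif differed more than its control. The share of members with an AP-1 match was higher by 1.19 points (0.17 to 2.63), and with its control by 1.35 (0.29 to 2.84). For PU.1 the differences were 0.21 points (-0.32 to 1.18) and 0.26 for its control (-0.39 to 1.34). In members without a start site the PU.1 ratio was 0.80 (0.73 to 0.88) against 0.92 for its control (0.82 to 1.04), and the AP-1 ratio was 0.96 (0.91 to 1.00). For C/EBP, GAS and IRF the motif and its control had overlapping intervals in both classes. The lower CpG and GC content of members with a start site moves with these ratios, and its part in them was not tested. At least 1 PU.1 match was present in 52.4% of members, at least 1 AP-1 match in 89.8%, and a GAS match in 89.3%, so a match in a region of this length is common.

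**Figure D4:**
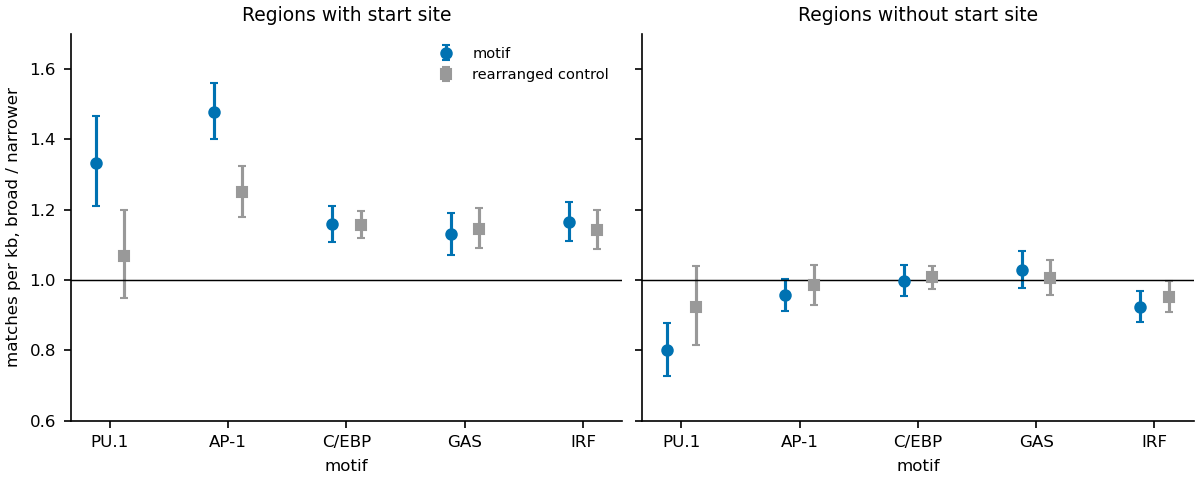
Matches per kb in broad members divided by matches per kb in narrower constant regions, for 5 motifs (circles) and their rearranged controls (squares), with exact Poisson 95% intervals. Counted over whole regions with a start site, AP-1 (1.48) and PU.1 (1.33) lie above their controls (1.25 and 1.07). In regions without one, PU.1 lies at 0.80 and its control at 0.92, with overlapping intervals.

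To determine how the height of members differed between conditions, the highest fold enrichment in a region was divided by the median of all constant regions in the same list, and a region was called higher or lower when this relative fold enrichment differed by 1.5-fold or more. The highest values of compared lists can come from different peaks of a region. Summits over 1 kb apart were also more frequent in members than in narrower constant regions, as given below. The lists being compared also decided membership, so the counts are descriptive. Comparisons that share a list are not independent. The median log2 difference over members was 0.12 for IFNγ against Control, -0.01 for PJ34 against Control, -0.16 for IFNγ+PJ34 against IFNγ and -0.02 for IFNγ+PJ34 against PJ34, beside 0.07, 0.10, -0.12 and -0.18 over all constant regions.

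With IFNγ against Control 374 members were higher, or 25%, and 244 lower, or 16.3%, beside 23.3% and 18.6% of all constant regions. With PJ34 against Control 241 were higher, or 16.1%, and 289 lower, or 19.3%, beside 21.4% and 15.9%. With IFNγ+PJ34 against IFNγ 262 were higher, or 17.5%, and 433 lower, or 28.9%, beside 20.1% and 27.3%. With IFNγ+PJ34 against PJ34 377 were higher, or 25.2%, and 406 lower, or 27.1%, beside 22.1% and 31.3%. For PJ34 against Control the balance differed from that of constant regions, with more members lower than higher. In the other comparisons the larger of both shares was the same for members as for constant regions, and none of these differences was tested.

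Without division by the list median, the comparisons shift by -0.48, -0.31, 0.22 and 0.05 on the log2 scale, in the same order, and the split changes. The uncentred shares higher and lower were 9.89% and 37.6% of members for IFNγ against Control, beside 9.2% and 40.2% of all constant regions. They were 7.48% and 33.9% for PJ34 against Control, beside 9.51% and 28.3%, and 25.6% and 19.4% for IFNγ+PJ34 against IFNγ, beside 27.7% and 18.3%. For IFNγ+PJ34 against PJ34 they were 26.7% and 24.9%, beside 23.4% and 29.2%, so that more members were higher than lower, which turns the balance of the centred values.

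Covered bases differed less often in members than height did. Coverage was lower by 1.5-fold or more in 191 members with IFNγ against Control, or 12.8%, and higher in 37, or 2.47%, beside 22.5% and 5.24% of constant regions. It was lower in 105 and higher in 34 with PJ34 against Control, or 7.01% and 2.27%, beside 14.2% and 4.94%. With IFNγ+PJ34 against IFNγ it was lower in 153 and higher in 103, or 10.2% and 6.88%, beside 14.1% and 14.0%. With IFNγ+PJ34 against PJ34 it was lower in 276 and higher in 111, or 18.4% and 7.41%, beside 20.5% and 11.7%. The rule requires a peak in every list, which limits how low coverage can be.

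The members whose relative height was highest with IFNγ against Control were inside Il15, a cytokine gene induced by interferons, inside Thada and inside Prr5l, next to Zcchc2, and inside Art3. The Il15 region, of 8676 bp, had a fold enrichment of 7.24 (Control), 41.0 (IFNγ), 13.4 (PJ34) and 56.7 (IFNγ+PJ34). Both IFNγ lists were thus above both lists without IFNγ, and coverage of the region went from 55.1% and 89.6% to 94.0% and 98.9%. The region nearest Zcchc2 had 3.8, 18.0, 5.00 and 43.5, in the same order of lists. The members that were lowest with IFNγ lay near Tbl1xr1 and Chd2, inside Mbp, near Nav1 and inside Arhgef6. The region near Tbl1xr1 had 29.5 in Control and 31.9 in IFNγ+PJ34, but 4.41 in IFNγ and 6.81 in PJ34.

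With PJ34 against Control the lowest members lay inside Gyg, near Tbc1d22a, Irf2 and Rpl3 and inside Ehd4, and the highest inside Cmtm7 and Zeb2, near Msr1, at Gm17268 and near Cacng6. The Gyg region, of 7067 bp, had a fold enrichment of 16.5 (Control), 13.3 (IFNγ), 2.70 (PJ34) and 24.1 (IFNγ+PJ34), with coverage of 91.5%, 68.7%, 10.7% and 96.1%. Only the PJ34 list was low there. With IFNγ+PJ34 against IFNγ the lowest lay near Hmox1, at Dusp2, near A730009L09Rik, at Slc7a11 and inside Trps1. Slc7a11, the cystine transporter, had 22.1, 56.3, 32.4 and 9.57. Dusp2, a phosphatase that acts on MAP kinases, had 24.0, 38.4, 41.9 and 6.05. The highest in this comparison lay near Tbl1xr1, inside Wdfy2, and at Snx8, Rab3il1 and Ly86. Ly86, which encodes the MD-1 partner of an LPS-related receptor, had 22.4, 13.4, 21.6 and 68.1. Against PJ34 alone, the lowest IFNγ+PJ34 members lay near Slc39a14 and Kif3c, inside Lpp and Jade2 and at Dusp2, and the highest near Ccr1 and Hist2h3c1, inside Gyg, near Zcchc2 and inside Rnf144b. The region near Ccr1, a chemokine receptor, had 4.37, 11.4, 4.11 and 38.9.

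By covered bases some of the same members stood at the ends. A region inside Nfatc2, of 6756 bp, was covered by 100% (Control), 9.16% (IFNγ), 51.4% (PJ34) and 34.9% (IFNγ+PJ34). The region at C5ar2, a complement receptor gene, was covered by 100%, 18.4%, 75.4% and 42.6%. A region inside Nlrp3, the inflammasome sensor, was covered by 56.5%, 44.4%, 100% and 6.18%. A region inside Fggy was covered by 5.01%, 17.7%, 3.92% and 100%, so its 5 kb width came from IFNγ+PJ34.

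Of the 15 IFNγ response genes in members, 8 were higher by 1.5-fold or more with IFNγ against Control and 1 was lower, beside 25% and 16.3% of members. With IFNγ+PJ34 against PJ34 8 were higher and 0 lower, beside 25.2% and 27.1% of members. Without centring the counts were 3 higher and 4 lower, beside 9.89% and 37.6% of members, and 8 higher and 0 lower, beside 26.7% and 24.9%. Cd274 had a fold enrichment of 27.5 (Control), 99.4 (IFNγ), 23.7 (PJ34) and 49.8 (IFNγ+PJ34). Gbp5, an interferon-induced GTPase, had 17.9, 48.2, 16.2 and 40.0. Socs1 had 62.8, 91.1, 27.2 and 100.9, and its coverage was 46.0%, 90.5%, 58.6% and 100%. Irgm1 had 62.1, 92.7, 50.7 and 116.6, and Trim21, an intracellular antibody receptor, had 25, 45.6, 20.1 and 68.1. In these 5 genes both IFNγ lists were above both other lists. In contrast, Irf1 had 73.1, 61.3, 33.9 and 42.1, B2m had 99.5, 65.8, 58.0 and 58.6, and Isg15 had 41.2, 17.3, 30.1 and 37.7, with Control the highest of the 4 lists. Relative to the median of each list Control stayed the highest for B2m, but IFNγ was the highest for Irf1, at 5.79 against 4.96 in Control, and IFNγ+PJ34 for Isg15, at 3.05 against 2.80 in Control.

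For the other lists the comparison of IFNγ+PJ34 with IFNγ gave mixed counts. Relative height was lower in 5 of 8 NF-kB factors and inhibitors, 4 of 7 immediate early and AP-1 genes, 4 of 9 inflammatory genes, 8 of 15 actin and adhesion genes and 5 of 11 lineage regulators, beside 28.9% of all members. It was higher in 0, 0, 2, 0 and 1 of them, among which were Tlr4, Ccl4 and Runx1, beside 17.5%. Without centring 2, 3, 4, 8 and 3 were lower, beside 19.4%, and 0, 0, 2, 1 and 1 higher, beside 25.6%. In the remaining lists 3 of 12 macrophage markers, 3 of 15 IFNγ response genes, 2 of 10 lysosomal, 1 of 6 lipid and 3 of 4 glycolysis genes were lower, and 1, 4, 0, 1 and 0 were higher. Fos had a fold enrichment of 27 (Control), 44.5 (IFNγ), 31.1 (PJ34) and 12.2 (IFNγ+PJ34). Dusp1 had 60.3, 43.3, 40.6 and 20.7, and Ier2 had 71.0, 44.9, 44.7 and 13.2. Traf1 had 35.9, 46.8, 46.0 and 22.3, with coverage of 94.0%, 79.1%, 100% and 21.5%. Tnf had 51.4, 47.4, 60.2 and 21.9, and Cxcl2, a chemokine for neutrophils, had 26.9, 26.4, 32.5 and 8.86. In each of these 6 genes, which are examples, the IFNγ+PJ34 value was the lowest of the 4. Other genes of these lists did not all have this order. Tlr4 had 59.9, 24.9, 20.9 and 51.2, and Il1rn had 22.4, 24.4, 16.2 and 26.4, with PJ34 the lowest. Macrophage markers were lower with IFNγ against Control in 4 of 12 and higher in 1, beside 16.3% and 25% of members, or lower in 8 and higher in 0 without centring, beside 37.6% and 9.89%. Among the lower, Csf1r had 98.5, 28.0, 40.2 and 42.9, and Lyz2 had 59.4, 18.7, 27.8 and 48.6. The marker called higher was Msr1, a scavenger receptor, with 18.6, 23.3, 40.7 and 24.8. The relative log2 difference was 0.41 for Ctss, 0.09 for Cd68 and 0.01 for Fcgr1, and negative for the other markers in members.

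**Figure D5:**
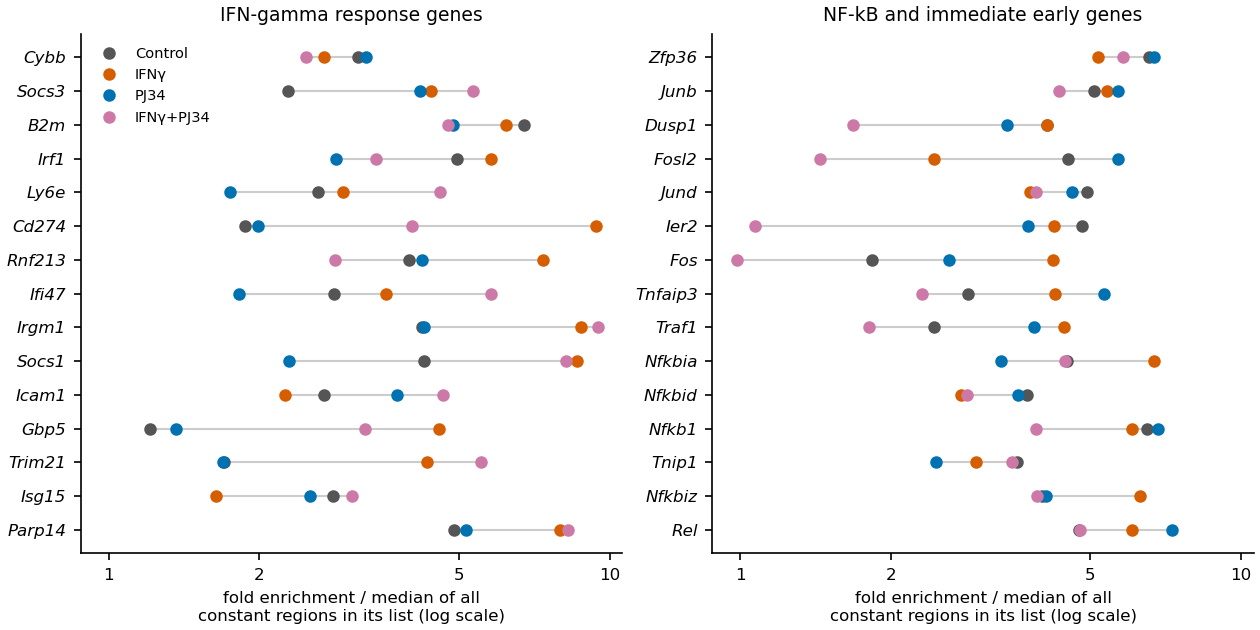
Highest fold enrichment in each member divided by the median of all constant regions in the same list, on a log axis, for 15 IFNγ response genes (left) and for 8 NF-kB and 7 immediate early genes (right), with a point per list. Cd274, Socs1, Irgm1, Gbp5 and Trim21 have both IFNγ lists to the right of Control and PJ34, and Fos, Ier2 and Dusp1 have IFNγ+PJ34 at the far left.

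The position of the highest point shifted more often within members. The IFNγ summit lay over 1 kb from the Control summit in 15.4% of members and 1.43% of narrower constant regions, the PJ34 summit in 13.0% and 1.23%, and the IFNγ+PJ34 summit in 18.8% and 1.78%. A region under 1 kb cannot show such a shift, and a wider region leaves more room for one. The median shift was 59, 53 and 64 bp in members and 43, 37 and 41 bp in narrower constant regions.

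The width limit cut through a continuous range. Just inside it were regions at Tfe3 (5006 bp), Rap1a (5007 bp) and H3f3a (5008 bp), and just outside it regions at Zmynd15 and Cxcl16 (4999 bp), Rell1 (4997 bp) and Odr4 and Tpr (4996 bp). The region at Tfe3, a transcription factor of lysosomal genes, was covered by 99%, 80.3%, 96.4% and 75% in Control, IFNγ, PJ34 and IFNγ+PJ34. The region at Cxcl16, a chemokine gene, was covered by 93.5%, 86.4%, 99.9% and 65.7%.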

How the data were processed

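H3K27ac ChIP-seq was analysed from BMDMs in 4 conditions. Per the study's methods, the authors aligned reads to mm10 with Bowtie, filtered them with Samtools and Picard, called relaxed peaks against input with MACS in each replicate, and kept peaks found in both replicates. The deposited lists, 1 per condition, give each peak a score, a fold enrichment over background (a ratio), a −log10 p-value and a −log10 q-value, all computed by the authors, and a summit offset. The 8 input samples entered only through the peak caller.

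Peaks were merged by 1 bp overlap. Gene models were from GENCODE M21 (basic, protein-coding) and sequence from GRCm38. Shares have exact Clopper-Pearson 95% intervals, differences of shares Newcombe intervals, medians order-statistic intervals and motif ratios exact Poisson intervals. All cover counting error only and treat regions as independent, which neighbours are not. A single list per condition leaves no replicates to compare, and p-values are therefore absent. The region, motif and interval functions were tested on simulated data.

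The members and gene lists were chosen with earlier results of these data known. The genes named were the 10 widest members, the 10 with the highest Control −log10 p, all genes of the lists, the 5 highest and 5 lowest members in each comparison of height or covered bases, and 3 regions on either side of 5 kb. Exceptions are stated. Some listed genes are not reported here. A member was named by the genes whose start it holds, otherwise by the gene around it or the nearest start. Of 50 IFNγ response genes 49 matched the annotation. Computations used numpy, pandas, scipy and pysam.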

Additional observations from a re-analysis of the deposited data

Results flagged for a closer look

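The effect of IFNγ on relative fold enrichment went in opposite directions without and with PJ34 in 133 members, 8.88% of the 1497, beside 11.6% of all constant regions. In 76 members the relative height was higher by 1.5-fold or more with IFNγ alone against Control. In the same members it was lower by as much with IFNγ+PJ34 against PJ34, and in 57 members the order was the reverse. The difference was not tested, since each condition has a single list. The members with the widest gap in either direction were near Tbl1xr1, with a fold enrichment of 29.5 (Control), 4.41 (IFNγ), 6.81 (PJ34) and 31.9 (IFNγ+PJ34), and near Cacng6, with 9.67, 23.0, 25.5 and 4.48. In 140 members, or 9.35%, IFNγ went with a greater relative height in both comparisons, beside 7.23% of all constant regions. In 61, or 4.07%, it went with a lower one, beside 4.26%. All these counts use values centred on the list median, and uncentred counts are not given. At Qk, among the 76 members, the fold enrichment was 61.5 in Control and 66.4 in IFNγ.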

How the results depend on the processing

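Of 299 values recomputed under other settings, 233 fell inside the 95% interval of the reported value (region counts: within 1.5 times) and 66 moved outside it. Restriction to q under 0.01, to autosomes and to lists of equal size moved none of the 27 values recomputed in each. Joining peaks within 1 kb gave 2763 regions, 50.7% with a start site, 49.0% of IFNγ response genes, and coverage of 80.5% (Control), 66.6% (IFNγ), 77.8% (PJ34) and 67.0% (IFNγ+PJ34). The higher-scoring 50% of each list gave 56.5% with a start site, coverage of 80.3% (IFNγ) and 79.6% (IFNγ+PJ34), and motif ratios of 1.07 (PU.1), 1.20 (AP-1) and 1.05 (IRF). A width of 8000 bp or more gave 390 regions, with 35.0% of macrophage markers, 25% of lineage regulators, 10.2% of IFNγ response genes, 25% of actin and 0% of ribosomal protein genes, and coverage of 96.0% (Control), 84.9% (IFNγ) and 95.7% (PJ34). A single peak of 5000 bp or more in each list gave 266 regions, 71.4% with a start site, with 5.00% of macrophage markers, 15% of lineage regulators, 10.2% of IFNγ response genes, 40.0% of actin and 0% of ribosomal protein genes, coverage of 96.7% (Control), 90.5% (IFNγ), 96.9% (PJ34) and 90.9% (IFNγ+PJ34), and motif ratios of 0.90 (PU.1), 1.09 (GAS) and 1.05 (IRF). In 200 bp around the Control summit the ratios were 0.81 (PU.1), 1.04 (AP-1), 1.01 (GAS) and 0.80 (IRF). The Control summit lay within 1 kb of a start site in 46.1%. Building regions from 3 lists, chosen after the data had been seen, gave 1223 to 1420 regions, and 0% of ribosomal protein genes with Control left out. A 2-fold limit gave shares higher and lower of 11% and 6.41% (IFNγ against Control), 5.41% and 7.08% (PJ34 against Control), 7.88% and 13.5% (IFNγ+PJ34 against IFNγ) and 14.4% and 14.4% (IFNγ+PJ34 against PJ34). Without centring they were 9.89% and 37.6%, 7.48% and 33.9%, and 25.6% and 19.4% for the first 3 of these. The cause of these moves was not tested. For the 11 other gene lists, 122 of 132 values stayed within the interval. No paired analysis was possible because the 2 replicates of a condition enter a single list, which also prevents leaving out a replicate. Without read counts, what depth limits cannot be stated.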

Other observations

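A further 12 regions spanned 5 kb or more but lacked a peak in a list, and so were not members. IFNγ+PJ34 was without a peak in 8 of them, Control in 3, PJ34 in 1 and IFNγ in 1, where a region nearest Psma6 lacked both IFNγ lists. Those absent from IFNγ+PJ34 included a region of 5213 bp nearest the start of Fos, a region of 5654 bp nearest Zeb2 and a region of 5020 bp nearest Ccr3. IFNγ+PJ34 was also the list most often missing at regions under 5 kb. Of such regions built from the other 3 lists, 87.2% had an IFNγ+PJ34 peak. With IFNγ, PJ34 or Control left out in the same way, the shares were 92.7%, 96.1% and 96.6%. Control lacked a region of 5585 bp nearest Pdcd1lg2, which encodes the PD-1 ligand PD-L2, while Cd274, its neighbour on chromosome 19, started in a member.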
